A study of Mus musculus with 4 samples.

Results

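Small nucleolar RNAs (snoRNAs) are carried in the introns of host genes, and 8 such hosts were followed here on 4 mouse arrays. They are Rabggtb, Snhg17, Snhg1, Snhg3, Snhg6, Snhg8, Snhg12 and Gas5, each of which holds at least 1 annotated snoRNA within its bounds in RefSeq. They were taken as the probe sets that carry their gene symbols, which gave 11 of the 41345 probe sets of the array. Of these, 8 carry 1 symbol and cover 6 genes. The other 3 carry a second symbol beside Rabggtb, Snhg8 or Gas5, so that Snhg8 and Gas5 were read only together with Snora24 and Mir5117. The genes were chosen by measured values of these same arrays, namely the Rabggtb difference with XCL1 in both genotypes and the Snhg17 difference in the KO, so those values are given as descriptions. The arrays came from type 1 conventional dendritic cells (cDC1) of C57BL/6 mice, which the labels give as female and 10 weeks old. XCR1-deficient cells (KO) received LPS (100 ng/ml) with recombinant mouse XCL1 (100 ng/ml), or LPS alone, and wild-type (WT) cells received the same treatments, so that LPS was common to all 4 groups. XCR1 is the receptor for the chemokine XCL1 and marks cDC1. With 1 array in each group there is no estimate of error, and no p-value can be given.

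By textbook knowledge, snoRNAs base-pair with ribosomal RNA in the nucleolus. Those of the box C/D class (named Snord in mouse) guide methylation of riboses, and those of the box H/ACA class (Snora) guide the conversion of uridine to pseudouridine. In vertebrates most are cut out of introns after splicing, so a host gene gives rise to a spliced RNA and to one or more stable snoRNAs. The spliced RNAs of the noncoding hosts (Snhg genes and Gas5) are often short-lived and are cleared through nonsense-mediated decay. Rabggtb is a protein-coding host. It encodes the beta subunit of the enzyme that attaches geranylgeranyl lipids to Rab GTPases, which direct vesicle traffic. A probe set of a host gene may thus read exons, introns or a snoRNA. Which of these a probe set covers is not given in the sources used here.

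Many host genes, like ribosomal protein genes, begin with a run of pyrimidines at the start of transcription (a terminal oligopyrimidine, or TOP, start). The starts of 7 hosts are shown because such a run is a feature that noncoding hosts and Rabggtb can share outside their introns. Each sequence is from RefSeq (GRCm38.p6), reads 5′ to 3′ along the transcript and covers 60 bases before the annotated start and 20 bases from it. Capitals mark a run that begins with C, holds at least 4 further bases that are all C or T, and begins within 5 bases of the start.
Rabggtb, chr3:153912947-153913026, minus strand: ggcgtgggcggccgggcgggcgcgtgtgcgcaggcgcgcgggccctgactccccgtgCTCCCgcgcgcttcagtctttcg
Snhg17, chr2:158361503-158361582, minus strand: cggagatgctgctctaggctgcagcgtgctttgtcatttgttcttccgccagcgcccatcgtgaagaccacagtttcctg
Snhg3, chr4:132353667-132353746, minus strand: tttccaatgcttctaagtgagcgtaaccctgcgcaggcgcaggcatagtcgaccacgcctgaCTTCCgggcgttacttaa
Snhg12, chr4:132308618-132308697, plus strand: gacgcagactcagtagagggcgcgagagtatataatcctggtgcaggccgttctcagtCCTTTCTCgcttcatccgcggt
Snhg1, chr19:8723427-8723506, plus strand: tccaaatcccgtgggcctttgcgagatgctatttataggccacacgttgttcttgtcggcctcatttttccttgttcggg
Snhg8, chr3:123508317-123508396, minus strand: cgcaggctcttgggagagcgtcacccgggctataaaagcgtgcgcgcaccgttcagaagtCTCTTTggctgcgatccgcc
Gas5, chr1:161035106-161035185, plus strand: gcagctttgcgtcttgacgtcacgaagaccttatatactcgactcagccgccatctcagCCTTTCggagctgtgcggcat
Such a run was found at 5 of the 10 start windows of these hosts. They were those of Snhg3, Snhg8 and Snhg12, the first of 2 annotated starts of Rabggtb and the second of 2 of Gas5. The other start of Rabggtb and that of Gas5 held none and are not shown. Of all 32851 mouse start windows in the same table, searched on the transcript's strand, 16.1% held such a run. Among ribosomal protein genes that host snoRNAs, 5 of 13 windows held one. No such run lay at either start of Snhg17, nor at that of Snhg1. The letters TATAAA occurred on the transcript's strand in the 300-base windows of Snhg8, 30 bases before the start, and of Snhg3, 22 bases after it. Of all windows 8.32% held them. A match is a description of the sequence only, and RefSeq starts can lie some bases away from those used in these cells.

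All signals are on the log2 scale. The words higher and lower are kept for differences of 1.5-fold (0.58 log2 units) or more between single arrays. The background was the 12997 probe sets with 1 gene symbol that reached 5.43, the median signal of the whole table, on 1 or more arrays. All 11 host probe sets passed that limit. Of 14 probe sets of cDC1 markers 12 to 13 reached the limit on each array, and Xcr1 itself was at 5.11 and 5.54 on the KO arrays with and without XCL1, against 7.19 and 6.42 on the WT arrays. Markers of other cells also gave signal, with medians for 6 B cell genes of 7.77 and 7.87 in the KO, against 8.51 and 8.51 in the WT. Array names of the 2 genotypes share no prefix, so a difference that goes with the prefix and one between genotypes cannot be told apart. The signal of Xist, which is expressed in female cells, was 4.57 and 4.64 in the KO, against 7.91 and 7.95 in the WT, which goes against the label of female for the KO arrays.

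Rabggtb was read by 2 probe sets that differed from each other in every comparison that involved XCL1. The probe set with the symbol Rabggtb alone (17411319) gave 8.20 on the KO array with LPS and XCL1, 6.31 on the KO array with LPS, against 7.46 and 6.67 on the WT arrays with and without XCL1. Both arrays with XCL1 lay above both arrays without it, and the KO arrays were the highest and the lowest of the 4. With XCL1 it was 3.70-fold higher in the KO and 1.73-fold higher in the WT. The probe set annotated to Rabggtb and Snord45c together (17411304) gave 7.40, 7.50, 7.42 and 7.37 on the same arrays in the same order. These 4 values lay close to each other, and XCL1 differences were -0.10 in the KO and 0.06 in the WT. The 2 probe sets therefore differed by 1.99 log2 units in the XCL1 difference of the KO. RefSeq places 3 snoRNAs inside Rabggtb, on chromosome 3, namely Snord45b, Snord45c and Gm24494, none of which has a probe set of its own.

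Snhg17, a noncoding host on chromosome 2, was read by 3 probe sets, and 2 of them stood out on a single array. Probe set 17393841 gave 8.86 on the KO array with LPS and XCL1, 7.82 on the KO array with LPS, against 7.88 and 7.86 on the WT arrays with and without XCL1. The KO array with both agents stood apart, and the other 3 lay close together. Probe set 17393839 gave 7.03 and 5.99 on the KO arrays with and without XCL1, against 5.31 and 5.65 on the WT arrays. Here the KO arrays lay above the WT arrays, and the WT array that received XCL1 was below the limit. Probe set 17393825 gave 6.54 and 6.39 in the KO, against 6.54 and 6.55 in the WT, with no array apart. With XCL1 in the KO the first 2 were 2.05-fold and 2.06-fold higher, while 17393825 differed by 0.15. RefSeq lists 2 snoRNAs without a gene name inside Snhg17, and the array annotation used here names neither.

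The other noncoding hosts varied little among the 4 arrays. Snhg1, the host of Snord22 and of 7 further snoRNAs on chromosome 19, gave 8.16 and 8.01 in the KO with and without XCL1, against 8.17 and 8.19 in the WT. Snhg3, which carries Snora73a and Snora73b on chromosome 4, gave 6.97 and 6.66, against 6.95 and 7.00. Its KO array with LPS was the lowest of the 4. Snhg6, the host of Snord87 on chromosome 1, gave 8.14 and 8.06, against 8.23 and 8.46, so both KO arrays lay below both WT arrays. Snhg12, which carries 4 snoRNAs on chromosome 4, gave 6.25 and 6.31, against 6.24 and 6.17. The groups did not separate by treatment there. The probe set annotated to Snhg8 and Snora24, on chromosome 3, gave 7.85 and 7.67 in the KO, against 7.76 and 7.74 in the WT. The probe set annotated to Gas5 and Mir5117, on chromosome 1, gave 7.72 and 7.69, against 7.55 and 7.75. Gas5 was first described as a transcript that accumulates in growth-arrested mouse cells. Snhg6 overlaps Mcmdc2, whose own signals lay below the limit on all 4 arrays.

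**Figure D1:**
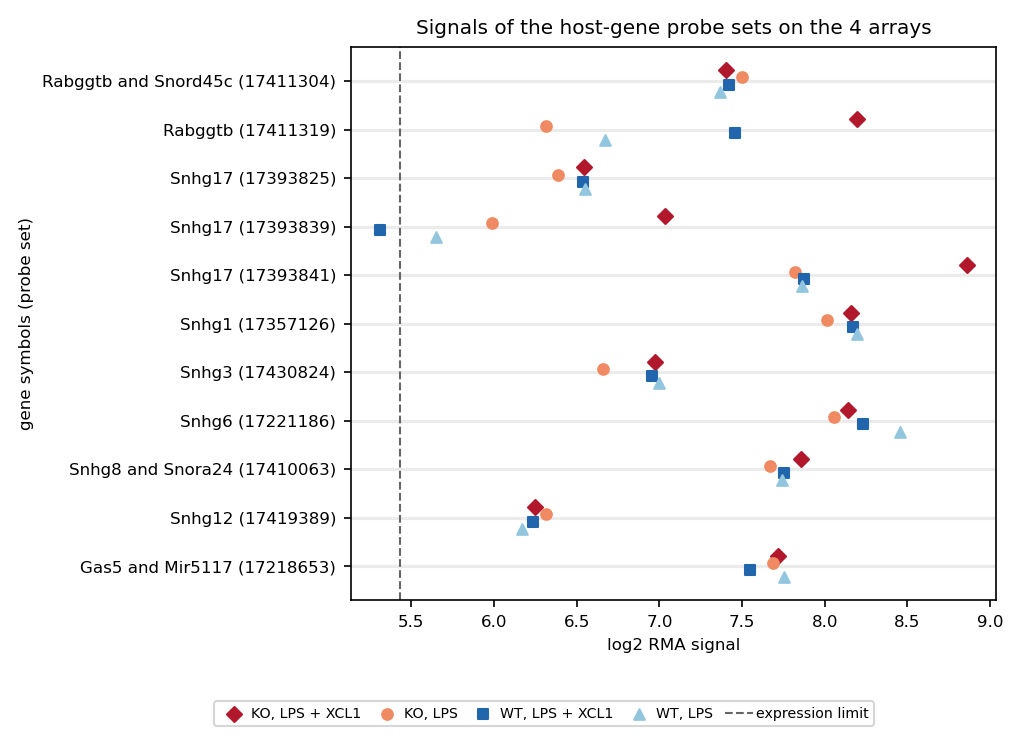
Log2 RMA signals (horizontal axis) of the 11 probe sets of 8 snoRNA host genes (rows, with symbols and probe set numbers), 1 point per array; the dashed line is the expression limit of 5.43. Rabggtb 17411319 spread from 6.31 to 8.20, and Snhg17 17393841 and 17393839 were highest on the KO array with LPS and XCL1 (8.86 and 7.03), while most other rows lay close together.

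Of the 8 host probe sets with 1 symbol, 3 were higher with XCL1 in the KO and none lower, where 1.54% of all probe sets tested differed by 1.5-fold in either direction, 0.816% being higher and 0.723% lower. As these probe sets were among the results that chose the list, nothing is read from that count. The 3 were Rabggtb (17411319) and Snhg17 (17393841 and 17393839). The other 5 lay between -0.07 for Snhg12 and 0.31 for Snhg3, with a median of 0.15, against 0.04 over all probe sets. The 3 probe sets with 2 symbols lay between -0.10 and 0.19. In the WT, where the receptor is present, 1 of the 8 was higher with XCL1 and none lower, against 0.839% of all probe sets in either direction, 0.323% higher and 0.516% lower. It was Rabggtb (0.79), whose WT difference also chose the list, so nothing is read from this count either. The other 5 below the threshold in the KO lay between -0.23 for Snhg6 and 0.07 for Snhg12 in the WT, and Snhg17 gave 0.02 (17393841) and -0.34 (17393839, or -0.22 with the limit in place of the signal under it). The 2 XCL1 pairs share no array.

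The XCL1 difference of the WT was below that of the KO by 1.5-fold or more at the same 3 probe sets. It was lower by 1.10 log2 units for Rabggtb (a difference of -1.10), and the values were -1.38 and -1.02 for Snhg17. Over all probe sets 3.89% passed the threshold in either direction, 1.74% above it and 2.15% below. The KO differences that chose the list are a part of these values, so nothing is read from that count. The remaining 5 lay between -0.36 and 0.13. With dim signals raised to the limit, the value of Snhg17 17393839 was -1.26.

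**Figure D2:**
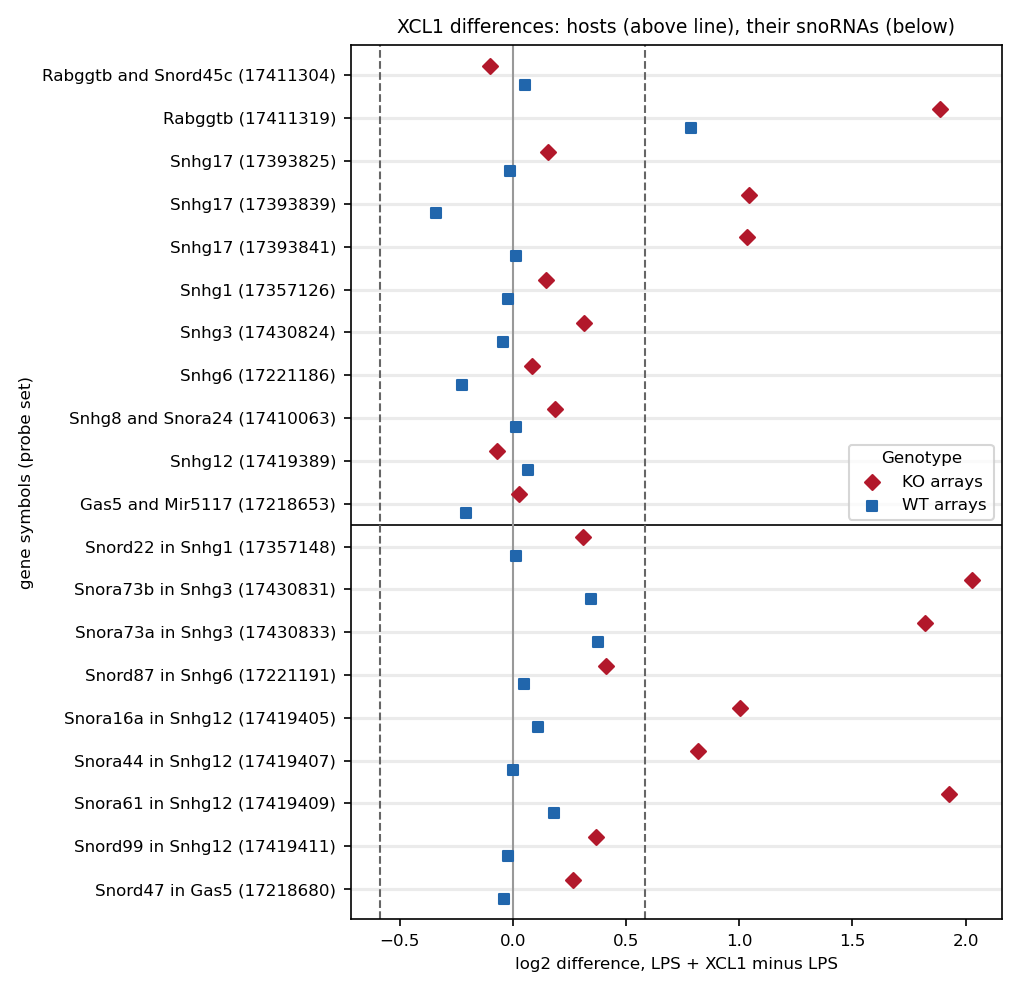
Log2 differences between LPS with XCL1 and LPS alone (horizontal axis) for the 11 host probe sets (above the line) and the 9 snoRNA probe sets inside the hosts (below it), with 1 point for the KO pair and 1 for the WT pair; dashed lines mark 1.5-fold. In the KO, Rabggtb 17411319 (1.89), Snora73b (2.03), Snora61 (1.92) and Snora73a (1.82) lay farthest right, and no snoRNA passed the lines in the WT.

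With XCL1 in the KO, the snoRNAs inside the hosts, which carry no host symbol, differed more than the probe sets of their hosts. This did not hold throughout in the WT, nor between the genotypes with LPS alone. RefSeq places 29 snoRNAs within the 8 genes, of which 9 have a probe set of their own with 1 symbol, in 5 of the hosts. Snora73b, which with Snora73a forms the U17 family needed for ribosomal RNA processing, gave 9.61 on the KO array with LPS and XCL1 and 7.58 on the KO array with LPS, against 8.43 and 8.08 on the WT arrays. Snora73a gave 9.19 and 7.37 in the KO, against 8.12 and 7.74 in the WT. For both, the KO arrays were the highest and the lowest, as for Rabggtb 17411319. In the KO they were 4.08-fold and 3.53-fold higher with XCL1, where the host Snhg3 differed by 0.31. The 2 are related in sequence, so their probes may read each other.

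Snhg12 holds snoRNAs of both classes, and these differed from each other. Snora61 gave 9.25 and 7.33 in the KO with and without XCL1, against 8.23 and 8.04 in the WT. Snora16a gave 9.91 and 8.90, against 9.14 and 9.03, and Snora44 gave 8.62 and 7.80, against 8.06 and 8.06. On the KO array with XCL1 each was above the other 3 arrays. The fold differences with XCL1 in the KO were 3.80, 2.01 and 1.76, at a host difference of -0.07. The box C/D snoRNA of the same gene, Snord99, gave 11.54 and 11.17, against 11.45 and 11.47, a difference of 0.37. Snord22 in Snhg1 (0.31), Snord87 in Snhg6 (0.41) and Snord47 in Gas5 (0.27) were within 1.5-fold as well. With XCL1 in the KO, all 5 box H/ACA snoRNAs of these hosts were thus higher, with a median of 1.82. None of the 4 box C/D snoRNAs was, with a median of 0.34. Over all probe sets 0.816% were higher in that pair and 0.723% lower. In the WT none of the 9 passed the threshold, against 0.839% of all probe sets in either direction, and the medians were 0.18 and 0.00. Mean signals were between 8.11 and 9.25 for the box H/ACA snoRNAs, and between 11.13 and 12.09 for the box C/D snoRNAs. Class and signal level can therefore not be told apart here.

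Some snoRNAs outside these hosts were higher in the same pair. Of 22 other named box H/ACA probe sets 8 were higher with XCL1 in the KO, and of 40 other box C/D probe sets 7 were, with medians of 0.48 and 0.33. Over all probe sets 0.816% were higher in that pair and 0.723% lower. In the WT none of either class passed the threshold, against 0.839% of all probe sets in either direction. These counts were added after the values were seen.

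The patterns most like Rabggtb 17411319 over the 4 arrays were those of snoRNAs. Likeness was the distance between signals after each probe set's mean over the arrays was taken away, among 1244 other probe sets with 1 symbol that passed the limit and spread at least 1.5-fold. The nearest were Snora73a (0.33), Snora73b (0.36), Snora61 (0.43), Snora31 (0.51), Snord13 (0.56) and Rnu3a (0.60). The first 3 lie inside Snhg3 and Snhg12. Rnu3a, a U3 snoRNA gene, gave 9.27 and 7.01 in the KO with and without XCL1, against 7.80 and 7.73 in the WT. Snord13 gave 10.53 and 8.71, against 9.17 and 8.99. For each of the 6 the KO array with XCL1 was the highest and the KO array with LPS the lowest. Rabggtb has this order, and the 6 were chosen for their likeness to it, so nothing is read from the shared order. The XCL1 differences of Rabggtb also chose the list of hosts. Rabggtb differed from the 6 in its WT arrays, where its XCL1 difference was 0.79 and theirs were between 0.08 and 0.38. Snhg17 17393841 was at a distance of 0.86. With 4 arrays, 1 per group, many probe sets can share a pattern, and the distance says nothing of shared control.

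**Figure D3:**
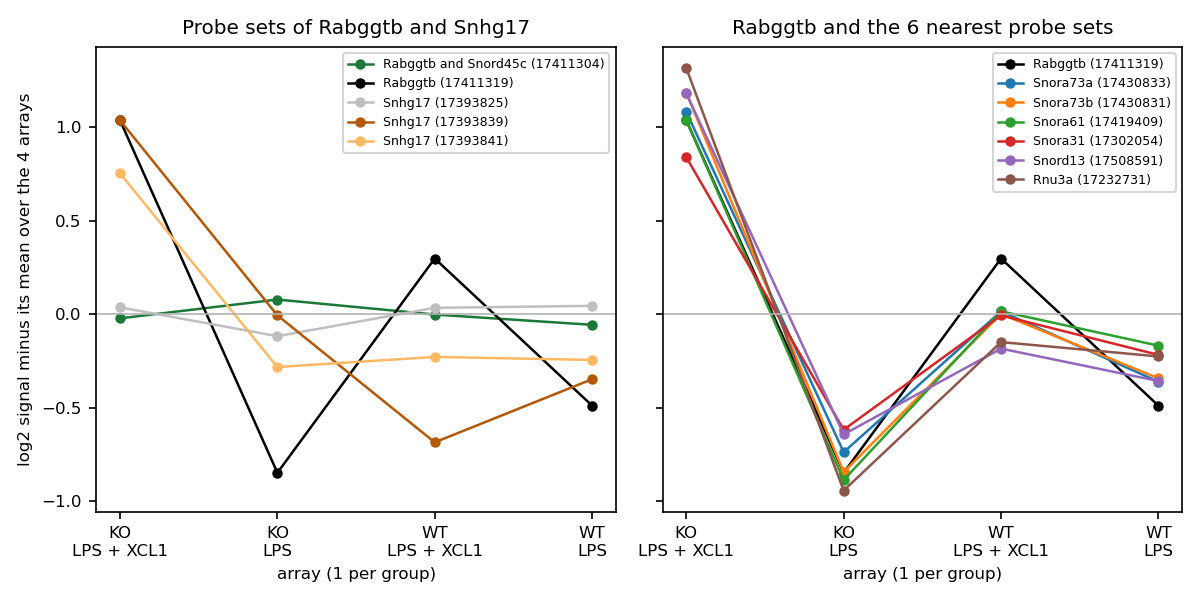
Log2 signal minus its mean over the 4 arrays (vertical axis) on each array (horizontal axis, 1 array per group), for the 5 probe sets annotated to Rabggtb or Snhg17 (left) and for Rabggtb 17411319 with its 6 nearest probe sets (right). On the right, all 7 lines are highest on the KO array with LPS and XCL1 and lowest on the KO array with LPS. The 6 were chosen for likeness to Rabggtb, so nothing is read from that shared order. On the left, the probe set of Rabggtb and Snord45c and Snhg17 17393825 are nearly flat.

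Between the genotypes, the hosts differed by 1.5-fold with LPS and XCL1 only. With both agents 3 of 8 probe sets were higher in the KO and none lower, against 4.10% of all probe sets in either direction, 2.19% higher and 1.92% lower. These were Rabggtb 17411319 (0.74), Snhg17 17393841 (0.98) and Snhg17 17393839, which was at least 3.04-fold higher when its WT signal was raised to the limit. With LPS alone none of the 8 passed, against 2.52% of all probe sets in either direction, 1.35% higher and 1.16% lower. Rabggtb was at -0.36 there, Snhg6 at -0.40, Snhg3 at -0.34 and Snhg17 17393839 at 0.34. Of the 8, 6 were below 0 with LPS alone, with a median of -0.17, against -0.04 over all probe sets. Over all probe sets 41.5% were above 0 in that pair, so most lay below 0 as well. Box H/ACA snoRNAs of the hosts went the same way, with 4 of 5 higher in the KO with LPS and XCL1 (median 1.02) and 1 of 5, Snora61, lower with LPS alone (median -0.38). None of the 4 box C/D snoRNAs passed in either pair. Each genotype difference shares an array with an XCL1 difference, and the KO array with LPS and XCL1 enters both. That array also gave values that chose the list, so nothing is read from the 3 of 8. In the pairs without that array, Rabggtb with XCL1 in the WT was the 1 host difference past the threshold. Markers of other cells differed by genotype too. In the KO with LPS and XCL1, 3 of 3 erythroid and 3 of 5 neutrophil markers were higher, and 4 of 6 B cell and 2 of 4 T cell markers were lower. With LPS alone 3 of 3 erythroid and 1 of 5 neutrophil markers were higher in the KO. In that pair 3 of 6 B cell and 2 of 4 T cell markers were lower. With XCL1 in the KO, 1 of 5 neutrophil markers was higher, 1 of 13 cDC1 marker probe sets was lower (Cd24a, -0.69), and none of the B cell, T cell, erythroid or macrophage markers passed. Over all probe sets 1.54% passed in that pair. The part of these markers in the host values was not tested. Fewer cells of a type and less RNA per cell cannot be told apart in such bulk samples.

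**Figure D4:**
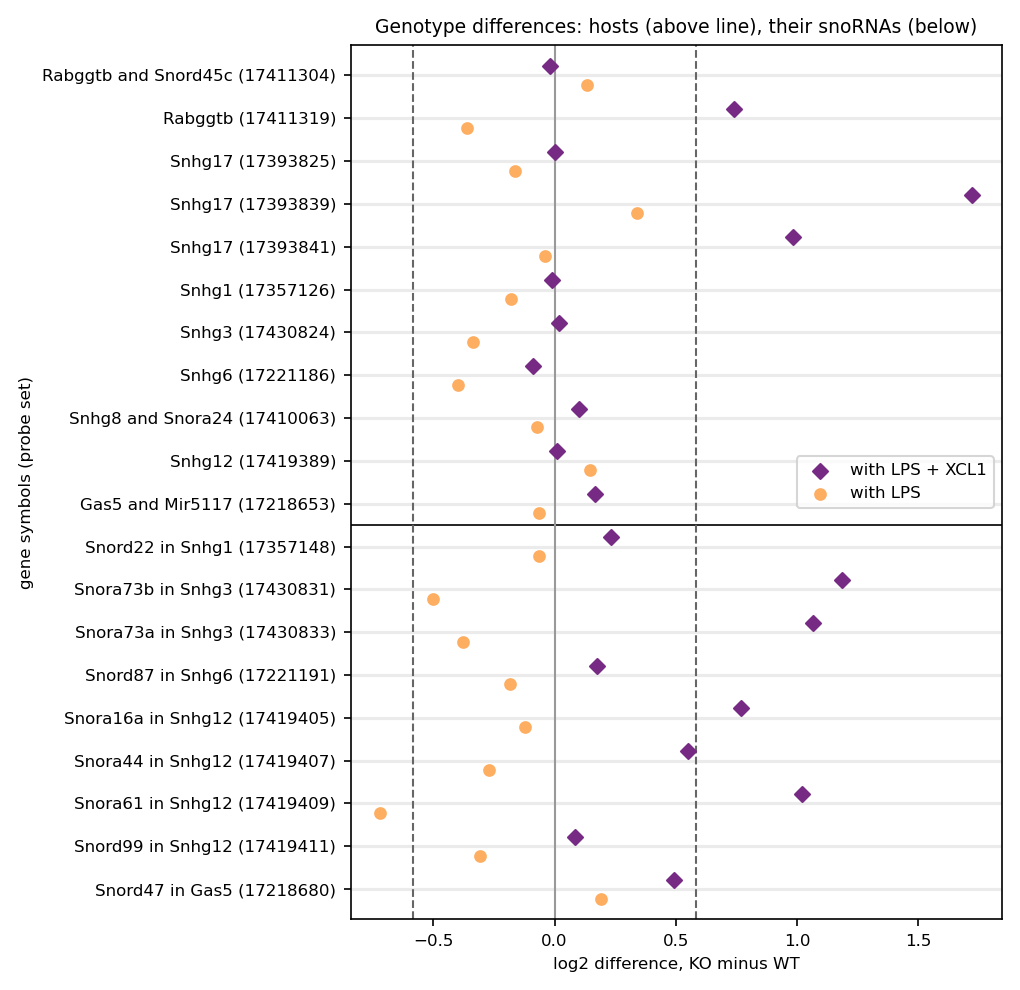
Log2 differences between KO and WT (horizontal axis) for the 11 host probe sets (above the line) and the 9 snoRNA probe sets inside the hosts (below it), 1 point for the pair with LPS and XCL1 and 1 for the pair with LPS; dashed lines mark 1.5-fold. Snhg17 17393839 (plotted at 1.72 from a WT signal under the limit, and 1.60 with the limit in its place) and Snora73b (1.18) lay farthest right with LPS and XCL1, and Snora61 (-0.72) was the 1 row beyond the left line, with LPS alone.

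Among 50 probe sets of 27 protein-coding hosts that passed the limit, 4 were higher with XCL1 in the KO and none lower. Over all probe sets 0.816% were higher and 0.723% lower. The median of the 50 was 0.04, equal to that of all probe sets. The 4 belong to 3 genes. Nop56, a core protein of box C/D snoRNPs and itself a host, was 2.05-fold and 1.69-fold higher at 2 probe sets, and the other gave 0.09. Taf1d, a subunit of the RNA polymerase I selectivity factor, was 1.94-fold higher at 1 of 11 probe sets, and the other 10, of which 1 repeats the values of another, lay between -0.15 and 0.39. Ptcd3, a mitochondrial ribosome protein, was 1.53-fold higher at 1 probe set and gave 0.07 at the other. In the WT none of the 50 passed, against 0.839% of all probe sets in either direction. All 50 carry 1 symbol. Of the probe sets with a second symbol, those of Top2a and Taf1d gave 1.01 and 0.60 with XCL1 in the KO. That of Snord14e and Hspa8 gave 0.75, and the others were within 1.5-fold. Among 13 probe sets of other noncoding hosts none was higher or lower with XCL1 in the KO, with a median of 0.08. Over all probe sets 1.54% passed in that pair, so nothing is read from this count. Snhg15 gave 0.07, Snhg4 0.14 and Zfas1 0.18 and 0.15. Snhg11 was lower with XCL1 in the WT at 1 of 2 probe sets (-0.61). Probe sets annotated to both Snora17 and Snhg7 gave 2.16 and 1.46 with XCL1 in the KO, where the probe set of Snhg7 alone gave 0.06 and the one annotated to Snora43 and Snhg7 gave -0.12. These were named after their values were seen. Of 30 probe sets of ribosomal protein hosts, Rpl5 was lower with XCL1 in the KO (-0.74) at 1 probe set, and in the WT Rpl21 was higher (0.61) at 1. The shares over all probe sets were 1.54% in the KO and 0.839% in the WT, so nothing is read from these counts. Some of the 30, of Rps12 and Rpl23a, repeat the values of another. Outside these 30, probe sets annotated to Rpl21 and several further symbols gave 0.90 and 0.38 with XCL1 in the KO. The one annotated to Rpl5 and Rpl5-ps2 gave 0.35 in that pair, the other way from the Rpl5 probe set named above. Rpl3 differed by -1.02 in the WT at 1 probe set whose signal with XCL1 was under the limit, and by -0.09 with the limit in its place, which is within 1.5-fold. These genes have many near-identical copies, so such single probe sets are uncertain.

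Most genes for the proteins that build, release and clear these RNAs stayed within 1.5-fold with XCL1 in their RNA signals. So did most of all probe sets, of which 1.54% passed with XCL1 in the KO and 0.839% in the WT. At such shares nothing is read from small sets in which none passed. Of 10 probe sets of snoRNP core proteins, those of Nop56 were the 2 that were higher with XCL1 in the KO, and Nop58 (0.07), Snu13 (0.09), Nop10 (0.17) and the pseudouridine synthase Dkc1 (0.04) were within 1.5-fold. None of 13 probe sets of assembly factors, 13 of debranching and exosome genes and 9 of nonsense-mediated decay factors was higher or lower with XCL1 in either genotype. Upf1, the helicase at the centre of that decay, gave 0.20 in the KO and 0.04 in the WT. Of 11 probe sets of regulators of TOP mRNAs none passed in any of the 5 comparisons, with the repressor Larp1 at -0.02 and the kinase Mtor at 0.03 with XCL1 in the KO. Over all probe sets the shares past the threshold in these comparisons lay between 0.839% and 4.10%. The partners of Rabggtb likewise stayed within 1.5-fold with XCL1. Rabggta, the alpha subunit of the same enzyme, gave -0.22 in the KO and -0.01 in the WT, and the Rab escort protein gene Chm gave -0.06 and -0.02. Its relative Chml gave 0.25 and 0.58, just under the threshold in the WT. None of 28 probe sets of Rab GTPases passed with XCL1, with Rab7 at -0.08 and Rab1a at 0.10 in the KO. Between the genotypes with LPS and XCL1, the assembly factor Shq1 (-0.70) and the CAAX protease Rce1 (-0.63) were lower in the KO, while Nop56 was higher at 1 probe set (0.60). Snhg11 differed by 0.85 at 1 probe set whose WT signal was under the limit, and by 0.32 with the limit in its place, which is within 1.5-fold. For Rab31 the XCL1 difference of the WT was below that of the KO (-0.71).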

How the data were processed

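The authors deposited RMA values on the log2 scale, 1 per probe set of the MoGene ST 2.0 array, per the labels' descriptions. RMA brings the arrays to a common distribution, which removes any overall rise or fall. Its software is not given in the sources used here. Total RNA was extracted with TRIzol and labelled as sense cDNA, per the labels' protocols. Symbols came from the platform's annotation table, with 23521 probe sets of 1 symbol, 1814 of several and 16010 not listed. SnoRNAs inside the hosts were found in a RefSeq table (GRCm38.p6), which held all 8 hosts. No array coordinates are given, since the array's build is not named.

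Differences between single arrays were counted at 1.5-fold, with no test. Log2 differences use the signals as deposited, also under the limit. Where such a signal enters a named difference, the value with the limit in its place is given too, and a fold against it is a lower bound. The hosts and the gene lists were chosen with earlier results of these data known. Every host probe set was named. From the lists, members past the threshold and up to 4 with the highest mean signal were named by rule. Snhg7, Snora17, Snora43, Cd24a, Dkc1, Rabggta, Chml and the probe sets of Nop56, Taf1d and Ptcd3 within 1.5-fold were added after their values were seen. So were the probe sets of Taf1d, Hspa8, Rpl21 and Rpl5 with several symbols. Counting was run on simulated arrays with less noise than the spread seen here, which checks the arithmetic and not the error of the counts. Alternatives were a 2-fold threshold, no limit and a stricter limit on signal (6.91, the 75th percentile), dim signals raised to the limit, cyclic loess (limma 3.58.1, span 0.7, 3 iterations), centring on the median, and 1 value per gene. Python 3.11.15, pandas 2.3.3 and R 4.3.3 were used. The number of arrays limits the precision.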

Additional observations from a re-analysis of the deposited data

Results flagged for a closer look

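Several host probe sets had XCL1 differences of opposite sign in the 2 genotypes, and none of these contrasts could be tested with 1 array per group. The effect in the WT minus that in the KO was -1.38 for Snhg17 17393839 (-1.26 with the limit in place of the signal under it), which was higher with XCL1 in the KO and below 0 in the WT. It was within 1.5-fold for Snhg3 (-0.36), Snhg6 (-0.31), Snhg1 (-0.17), Snhg17 17393825 (-0.16) and Snhg12 (0.13). Genotype differences of opposite sign in the 2 treatments were seen for Rabggtb 17411319, with KO minus WT at 0.74 with LPS and XCL1 and -0.36 with LPS, and for Snhg17 17393841, at 0.98 and -0.04. Values near 0 did the same for Snhg3 (0.02 with LPS and XCL1) and Snhg17 17393825 (0.00).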

How the results depend on the processing

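Under 7 alternatives the counts of host probe sets past the threshold stayed within 1.5 times those reported, except with a 2-fold threshold. At 2-fold 0 in place of 1 were counted with XCL1 in the WT, and 1 in place of 3 between the genotypes with LPS and XCL1, while the 3 with XCL1 in the KO remained 3. With 1 value per gene, 2 of 6 genes passed with XCL1 in the KO, and Snhg17 averaged 0.74 there, which hides the gap between its probe sets. Of the single values, 40 of 40 moved by less than the spread of all probe sets (1 SD) with dim signals raised, with cyclic loess and with centring, and no called value changed sign. With 1 value per gene, 9 of the 15 Snhg17 values moved by more than that spread. Centring shifted XCL1 differences by -0.06 in the KO and -0.05 in the WT, and genotype differences by 0.08 with LPS and XCL1 and 0.09 with LPS. Over all probe sets it turned the split with XCL1 in the KO to 68 higher and 146 lower, against 106 and 94 as deposited. For XCL1 in the WT it gave 26 higher and 100 lower, against 42 and 67. Between the genotypes it gave 451 higher and 138 lower with LPS and XCL1, against 284 and 249, and 313 and 86 with LPS, against 176 and 151. At 2-fold the share of all probe sets past the threshold was 0.169% with XCL1 in the KO and 0.0308% in the WT, and 0.285% between genotypes with LPS and 0.5% with LPS and XCL1. No paired analysis was possible because each group has 1 array. For the same reason no array could be left out of a comparison. Signal over background is unknown here, since the limit is a median and not a measured background.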
